A study of Mus musculus with 4 samples.

Results

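Transcript levels of 8 transcription factor genes of the gut epithelium were followed in the small intestine of 4 mice, 2 of them HNF4 null and 2 controls: the nuclear receptors Hnf4a, Hnf4g and Nr5a2, the homeobox genes Cdx1 and Cdx2, and the zinc finger genes Gata4, Gata5 and Gata6. Every probe set that the platform annotation gave exactly 1 of these symbols was taken, which yielded 19 of the 22626 probe sets apart from controls, for 8 of 12393 named genes. Of the 19, 18 were bright enough to test, and 1 Nr5a2 probe set was not. Biotin-labelled total RNA of each animal was measured on its own Affymetrix array.

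All animals were 1 month old, and all 4 carried an HNF4 allele flanked by loxP sites. In the null male and the null female the other allele was a minus allele, and both had villin-Cre. The villin promoter drives Cre in the intestinal epithelium, so muscle, connective tissue and immune cells of the wall keep the floxed allele. The control female had villin-Cre too, but her other allele was wild type. The control male had the same alleles as the null animals (loxP/-) but lacked Cre. Neither control was therefore wild type, and the controls differed from each other in sex, in Cre and in the second allele. The labels name HNF4 without saying which paralogue, or which exons, the loxP sites flank, and recombination was not measured here.

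HNF4 proteins bind DNA as dimers of nuclear receptors and keep lipid transport and other enterocyte genes active. Cdx2 sets intestinal identity during development and, with Cdx1, maintains it in the adult. GATA factors act along the length of the gut, and Gata4 is known for setting jejunal against ileal gene expression. Nr5a2, also called LRH-1, acts in crypt renewal and in steroid and bile acid metabolism. These factors bind many of the same enhancers and can regulate one another's genes.

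The arrays had median deposited intensities between 43.2 and 53.3, and between 1.42% and 2.46% of the values on an array were below 0. The null male had the lowest median, and correlations across probe sets were lowest in the pairs that included it, at 0.927 to 0.946 against 0.955 to 0.963 for the other pairs. Results below are therefore also given without this array where it matters. Intensities are linear values of brightness. Log2 values are of the quantile normalized intensity plus 16, on which a difference understates the change of a dim probe set. Of 13 genes of epithelial identity, all 13 were tested, and their mean intensity was between 1956 and 2457 on each array, whereas the 5 hepatocyte genes tested, which gut should lack, averaged 33.9 to 40.6.

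Promoter sequence is shown for Hnf4a, Nr5a2 and Cdx2, because after normalization the control male was the lowest array on every tested probe set of these 3 genes and because their windows held letters that GATA, HNF1 or CDX factors are known to bind. RefSeq windows of 250 bases before a start site, on build GRCm38.p6, were matched for 4 of the 8 genes (Hnf4a, Cdx2, Gata5 and Nr5a2), 6 windows in all. Hnf4a has a distal and a proximal promoter, which start different isoforms. The distal window (chr2:163506607-163506856, plus strand) and the proximal one (chr2:163546905-163547154, plus strand) start 40298 bases apart. The distal of 2 Nr5a2 windows (chr1:136960449-136960698, minus strand) and the Cdx2 window (chr5:147307250-147307499, minus strand) are given beside them. Each runs 5′ to 3′ up to the base before the start site, with the motifs found on either strand in capitals.
Hnf4a distal: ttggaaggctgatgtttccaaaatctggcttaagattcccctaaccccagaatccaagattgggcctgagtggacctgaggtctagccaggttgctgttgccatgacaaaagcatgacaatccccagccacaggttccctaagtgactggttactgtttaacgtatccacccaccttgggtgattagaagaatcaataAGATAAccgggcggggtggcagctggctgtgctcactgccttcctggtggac
Hnf4a proximal: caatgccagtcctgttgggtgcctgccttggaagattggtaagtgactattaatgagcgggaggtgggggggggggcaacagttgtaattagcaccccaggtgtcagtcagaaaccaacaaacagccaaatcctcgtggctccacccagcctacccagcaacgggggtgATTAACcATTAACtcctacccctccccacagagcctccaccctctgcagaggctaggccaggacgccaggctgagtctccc
Nr5a2 distal: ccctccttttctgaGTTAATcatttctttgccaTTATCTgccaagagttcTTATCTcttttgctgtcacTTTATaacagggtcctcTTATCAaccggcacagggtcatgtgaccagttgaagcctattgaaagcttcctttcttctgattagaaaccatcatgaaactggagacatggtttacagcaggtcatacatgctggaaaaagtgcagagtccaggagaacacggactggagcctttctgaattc
Cdx2: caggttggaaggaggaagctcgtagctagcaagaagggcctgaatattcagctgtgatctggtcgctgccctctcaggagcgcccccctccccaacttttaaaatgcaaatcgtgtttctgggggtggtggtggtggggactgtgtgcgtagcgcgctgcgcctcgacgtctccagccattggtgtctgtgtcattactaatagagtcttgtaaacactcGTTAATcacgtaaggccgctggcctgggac

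The distal Hnf4a window held 1 GATA motif, AGATAA, at -52, counting back from the start site to the first letter. The proximal window held the HNF1 half-site GTTAAT on the opposite strand at -81 and at -74, and no GATA motif. The Nr5a2 window held GTTAAT at -236, AGATAA on the opposite strand at -217 and -200, the CDX motif TTTAT at -181 and TGATAA on the opposite strand at -164. The Cdx2 window held GTTAAT at -30 and none of the other motifs. No motif shown overlapped another. Over all 32851 RefSeq windows of the same length, AGATAA was found on either strand in 9.99%, TGATAA in 7.94%, TTTAT in 37.3% and GTTAAT in 6.43%. The HNF4 motif CAAAGTNCA, present in 1.19% of all windows, and the NR5A2 motif CAAGGTCA, present in 1.33%, were not among the letters of the 6 windows, and the Gata5 window and the other Nr5a2 window held no motif searched. A match describes letters in a window and does not show binding in these animals.

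Comparing null with control intestine asks whether loss of HNF4 from the epithelium changed the factors that work beside it. None of the 8 genes passed the test. Of the 18 probe sets tested, 10 were nominally higher and 8 lower in the null animals, and 0 passed an adjusted p of 0.05 in limma, where 0.0126% of all 15838 probe sets passed (2 probe sets). Before adjustment, 0 of the 18 had a p under 0.05 in limma, against 3.03% of all probe sets. With sex as a block, 0 of the 18 passed and 0.183% of all probe sets did. The median difference over the 18 was 0.04 on the log2 scale, against -0.01 over all probe sets. In 1 of the 18, a Gata6 probe set, both null arrays lay below both controls, which held for 16.3% of all probe sets, and in 0 of the 18 did both lie above, against 13.5%. Adjusted p in limma was 1 for every member, and the differences below are given with their 95% intervals as bounds on what these arrays can show. In bulk tissue, fewer cells of a type and less RNA per cell cannot be told apart. The labels name separate animals, with 2 per group. The p-values rest on the spread between those animals, which limma draws toward that of other probe sets of like intensity. In both groups that spread includes sex, and in the controls also Cre and the second allele.

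**Figure D1:**
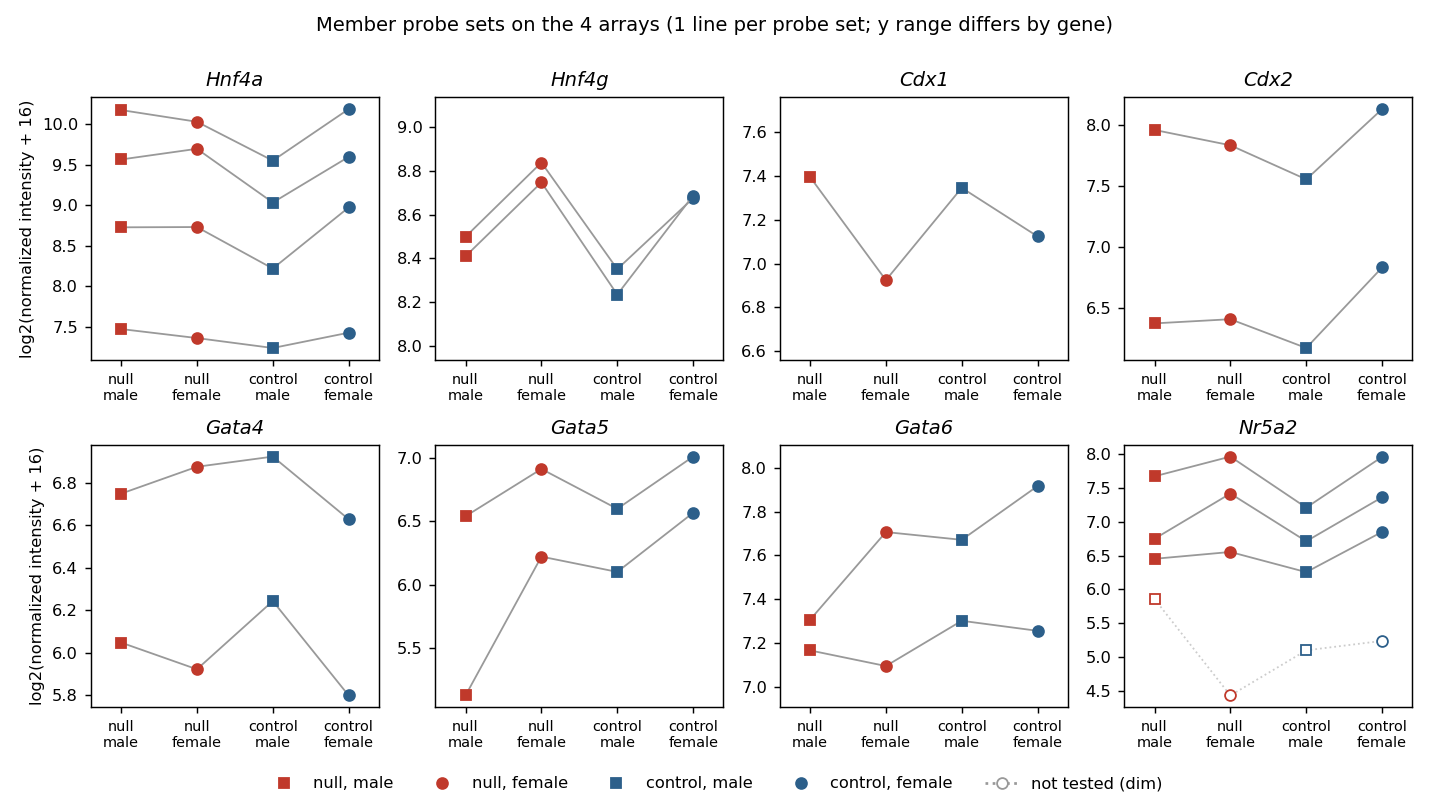
Each panel shows 1 gene, with log2(normalized intensity + 16) on the y axis and the 4 arrays on the x axis; a line joins the values of 1 probe set, red marks null and blue control animals, squares males and circles females, and open symbols the Nr5a2 probe set that was not tested. The control male is the lowest array on all 4 Hnf4a probe sets, both Hnf4g probe sets, both Cdx2 probe sets and all 3 tested Nr5a2 probe sets, while Gata4 runs the other way among the controls.

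Hnf4a, the gene of the HNF4 family that is known from liver, kidney and gut, did not have a lower mean in the null animals on any of its 4 probe sets. Probe set 1427001_s_at, the brightest, had deposited intensities of 1136 in the null male, 1025 in the null female, 1141 in the control female and 731 in the control male. Probe set 1427000_at read 727 and 813 in the null male and female, against 783 in the control female and 508 in the control male. Both null animals thus read close to the Cre-positive control, and the control without Cre stood below all of them. The control male was also the lowest on the other pair. Probe set 1421983_s_at read 391 and 413 in the null animals, 497 in the control female and 283 in the control male, and 1450447_at read 148, 158, 161 and 135 in the same order of animals. Groups overlapped on all 4.

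Null minus control differences of Hnf4a were 0.23 (SE 0.22), 0.32 (SE 0.22), 0.13 (SE 0.27) and 0.08 (SE 0.21) on the log2 scale, from the brightest probe set to the dimmest. The lower 95% bounds in limma were -0.30, -0.20, -0.50 and -0.41. Expressed as a ratio of null to control, the brightest probe set allowed from 0.814 to 1.70, and 1427000_at from 0.871 to 1.78. Loss of most Hnf4a signal at these probe sets therefore lay outside the intervals. Without the control male the difference of the brightest probe set was -0.08, and over leaving out each animal in turn it ranged from -0.08 to 0.55. The sources used here do not say where the probes lie relative to the loxP sites. A transcript that lacks the deleted exons could still give this signal and the values do not check the genotype. The suffix _s_at marks a probe set whose probes can match more than 1 transcript.

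Hnf4g, the paralogue with the same DNA-binding preference, which is expressed in gut epithelium, gave near-identical patterns on its pair of probe sets. Probe set 1450518_at read 327 in the null male, 445 in the null female, 404 in the control female and 309.6 in the control male. Probe set 1422182_at read 305, 417, 408 and 286 in that order. Each female lay above each male on both, whatever the genotype. Null minus control differences were 0.16 (SE 0.21, 95% interval -0.35 to 0.66) and 0.12 (SE 0.23, 95% interval -0.44 to 0.67) in limma. A rise of Hnf4g beyond a ratio of 1.59 to control lay outside both intervals. On 1450518_at the male pair differed by 0.15 and the female pair by 0.16, so its difference was nearly the same in both sexes, although without the null female it was -0.01 and without the control male -0.01.

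Nr5a2, the nuclear receptor LRH-1, had 3 tested probe sets. Probe set 1456521_at read 173 in the null male, 245 in the null female, 240.3 in the control female and 132 in the control male. Probe set 1420410_at read 82.3 and 164 in the null animals, 153 in the control female and 89.8 in the control male. On both, the 2 females stood together above the 2 males. Probe set 1449706_s_at kept that order with smaller gaps, at 63.9, 83.9, 102 and 61.2. The null minus control differences were 0.23 (SE 0.29), 0.05 (SE 0.33) and -0.05 (SE 0.27), with 95% intervals in limma of -0.47 to 0.93, -0.74 to 0.83 and -0.69 to 0.59. The fourth Nr5a2 probe set, 1449707_at, read 36.9, 7.49, 22.2 and 18.6, below the filter on dim probe sets, and its null animals were both its highest and its lowest array. It is not shown to lie above background and followed none of the others.

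**Figure D2:**
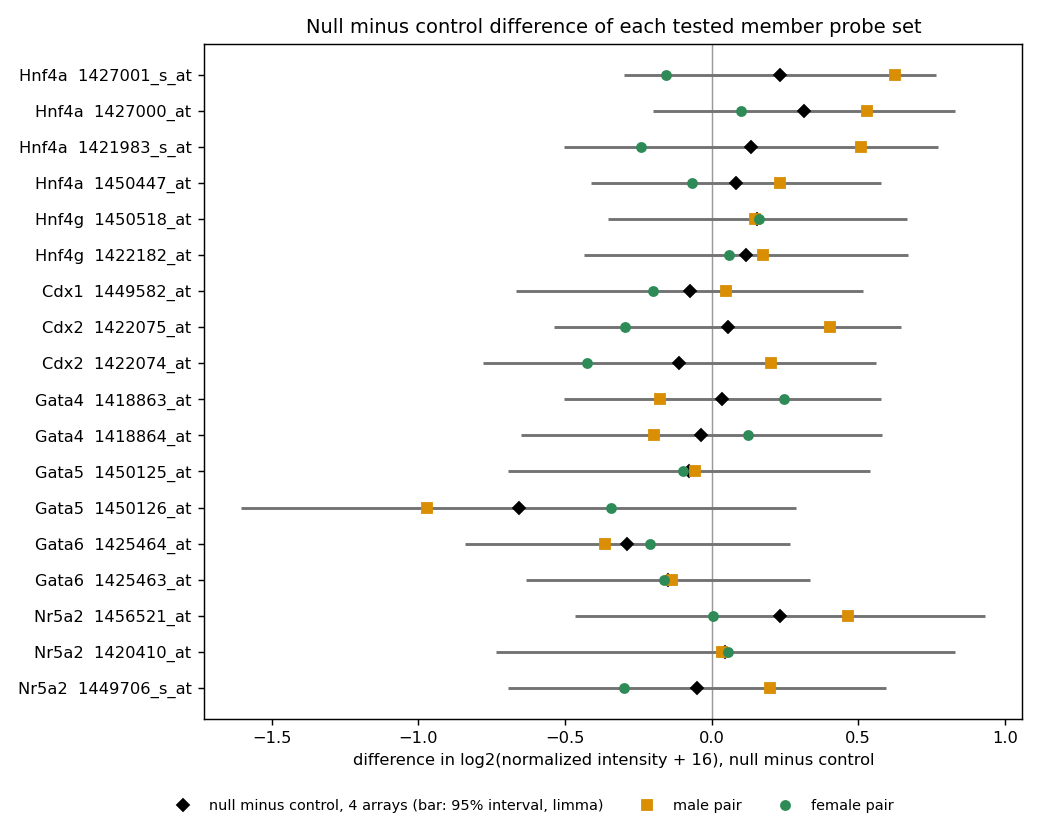
Each row is a tested member probe set; the diamond is the null minus control difference in log2(normalized intensity + 16) over 4 arrays with its 95% interval from limma, the square the male pair and the circle the female pair. All 18 intervals include 0, and 9 of the 18 probe sets have a male and a female pair on opposite sides of 0, as do 51.8% of all probe sets tested.

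Cdx2, the homeobox factor of intestinal identity, read 215 in the null male, 222 in the null female, 272 in the control female and 172 in the control male on its brighter probe set, 1422075_at. The other, 1422074_at, read 59.4, 74.0, 100.1 and 56.7 in that order. The controls thus took both ends of the range on each probe set, and both null animals lay between them. Null minus control differences were 0.05 (SE 0.25, 95% interval -0.54 to 0.65) and -0.11 (SE 0.28, 95% interval -0.78 to 0.56) in limma, so the probe sets differed in sign by less than their errors. The sexes were split on both, with 0.41 between the males and -0.30 between the females on the brighter one. On 1422074_at these were 0.20 and -0.42. Cdx1, a homeobox gene that is itself a known target of Wnt signals in crypts, had 1 probe set, 1449582_at, with 139 in the null male, 112 in the null female, 126 in the control female and 146 in the control male. Its order was opposite to that of Hnf4g, with both males above both females, and the difference between groups was -0.07 (SE 0.25, 95% interval -0.67 to 0.52) in limma.

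Gata4, the zinc finger factor of proximal small intestine, read 82.2 in the null male, 108 in the null female, 85.0 in the control female and 106 in the control male on 1418863_at. Probe set 1418864_at read 44.3, 48.6, 40.3 and 60.6 in that order. The lowest of these lies within the 33.9 to 40.6 that the hepatocyte genes averaged, and the values are not shown to lie above background. After normalization the control male was the highest and the control female the lowest of the 4 arrays on both probe sets. This was the reverse of the order of the controls for Hnf4a, Hnf4g and Cdx2. Null minus control differences were 0.04 (SE 0.23, 95% interval -0.50 to 0.58) and -0.04 (SE 0.26, 95% interval -0.65 to 0.58) in limma.

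Genes of region along the gut were set beside Gata4, since the labels do not say which segment was taken. Of 11 proximal genes tested, a list that holds Gata4 itself, 6 were higher and 5 lower in the null animals, with a median of 0.04 and 0 past the threshold. Their mean log2 level was 7.38 in the control female, 7.69 in the null male, 7.80 in the control male and 7.87 in the null female. The control female, the lowest for both Gata4 probe sets after normalization, was also lowest for the proximal list on this scale. By mean deposited intensity she was not, at 882, against 828 in the null male, 817 in the null female and 1022 in the control male. The brightest of these genes were Fabp1 (a fatty acid carrier) at -0.21, lactase, Lct, at -0.12 and the incretin gene Gip at -0.61, which read 635 in the null male, 714 in the null female, 749.6 in the control female and 1535 in the control male. Of 7 distal genes tested, 0 were higher and 7 lower, with a median of -0.34 and 0 past the threshold. The brightest were the bile acid transporter subunit Slc51a at -0.34, Cubn at -1.35 and the proglucagon gene Gcg at -0.13. Their mean log2 level was 7.02 and 7.13 in the null male and female, against 7.76 and 7.58 in the control female and male. Whether the segments taken differed was not tested.

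Gata6, the GATA factor of crypt and villus epithelium, read 129.6 in the null male, 203 in the null female, 232 in the control female and 188 in the control male on 1425464_at. Probe set 1425463_at read 116, 129, 140.0 and 141 in that order, and is the 1 member whose groups did not overlap. The gap was small, with a difference of -0.15 (SE 0.20, 95% interval -0.63 to 0.34) in limma. On 1425464_at the difference was -0.29 (SE 0.23, 95% interval -0.84 to 0.27), with the null male well below the other arrays and -0.09 without that array. Differences of Gata6 were below 0 on both probe sets and in both sexes, and stayed below 0 under every alternative run.

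Gata5, which is expressed in gut epithelium with the other GATA genes, showed the widest interval of all. Probe set 1450125_at read 69.0 in the null male, 111 in the null female, 115 in the control female and 81.6 in the control male, a difference of -0.08 (SE 0.26, 95% interval -0.69 to 0.54) in limma. Probe set 1450126_at read 15.4 in the null male against 63.4, 80.6 and 53.3 in the null female, the control female and the control male. Its difference of -0.66 (SE 0.40, 95% interval -1.60 to 0.29) rested on the null male, and was -0.11 without that array. The value of 15.4 is not shown to lie above background. With sex as a block it was the 1 member probe set with an unadjusted p under 0.05 in limma (adjusted p = 0.968), against 5.08% of all probe sets.

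More of the members' probe sets were ordered by the sex of the animal than by its genotype. On 11 of the 18 tested probe sets (61.1%) both females read above both males, which held for 22.3% of all probe sets tested. These belonged to 6 genes, Hnf4a, Hnf4g, Nr5a2, Cdx2, Gata5 and Gata6, and probe sets of 1 gene are not separate measurements of it. On the brightest probe set of each gene, 4 of the 8 genes had that order, and Hnf4a and Cdx2 did not. The null female was only 0.003 above the null male on Hnf4a 1421983_s_at, and 0.034 above on Cdx2 1422074_at. On 2 of the 18, of Cdx1 and Gata4, both males were above both females, against 17.9% of all. In the controls alone the median female minus male difference over the 18 was 0.46, where all tested probe sets had 0.00. In the null animals it was 0.11, where all had 0.04. The control male, the male without Cre, was the lowest array on 11 of the 18, against 19.1% of all probe sets. The sexes of the controls cannot be told apart from Cre or from the second allele.

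**Figure D3:**
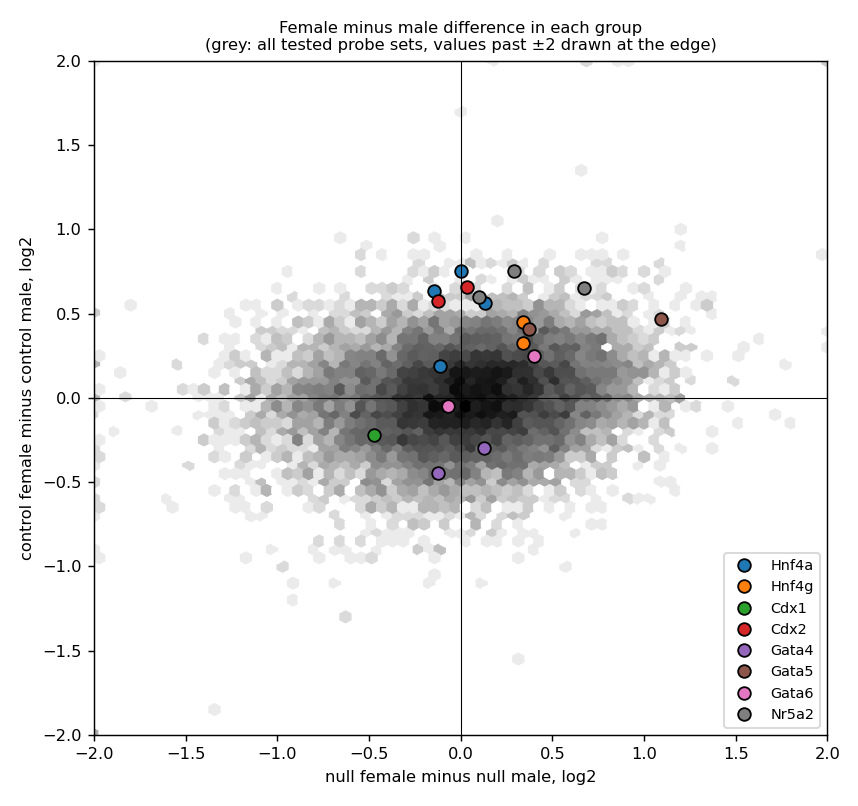
The x axis gives the null female minus the null male and the y axis the control female minus the control male, both female minus male in log2(normalized intensity + 16); grey cells count all tested probe sets on a log scale and coloured points are the member probe sets. The members sit mostly above 0 on the y axis, with a median of 0.46, and scatter around 0 on the x axis, with a median of 0.11.

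No single member passed a test of the sexes. In the limma fit with sex as a block, 0 of the 18 had an adjusted p under 0.05 for female against male, where 0.53% of all probe sets passed. The smallest p was that of Nr5a2 probe set 1420410_at, at a female minus male difference of 0.66 (SE 0.23, adjusted p = 0.399 in limma), followed by the Gata5 probe set 1450126_at at 0.78 (SE 0.29, adjusted p = 0.463 in limma). This comparison was added after the values were seen. The count of 11 was 9 with each array scaled to a common median, where 19.3% of all probe sets had that order, and 13 with no normalization, where 29.4% had it. It was 14 without the null male and 13 without the null female, against 34.5% and 33.9% of all, and 11 without either control, against 36.7% of all without the female and 42.8% without the male.

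Markers of other cells in the wall differed between these animals in ways of their own. Of 6 genes of B and plasma cells tested, 4 were higher in both females, an order that 22.3% of all probe sets tested had. The mean log2 level of the 6 was 7.67 in the null male, 7.70 in the null female, 8.02 in the control female and 6.91 in the control male. The list did not move as one. Pou2af1, a coactivator of B cells, read 92.7, 169, 205 and 56.7 in that order of animals, and Cd79b, a subunit of the B cell receptor, read 88.3, 201, 192 and 28.5. Jchain, the joining chain of secreted antibodies and the brightest of the list, ran the other way, at 2944, 1480, 1395 and 3243, with the control male highest. Cd22, a B cell lectin chosen after its values were seen, was lowest in the null female, at 135, 29.4, 126 and 116.

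Of 9 fibroblast genes, 5 were higher in both females, where 22.3% of all probe sets tested were. Their median female minus male difference was 0.64 between the null animals and 0.01 between the controls. Their mean log2 levels were 6.95, 7.85, 7.31 and 7.23, lowest in the null male. The brightest were the matrix genes Dcn, at 373, 483, 340.4 and 387, Col3a1, at 192, 712, 396 and 307, and Sparc, at 115, 442, 248 and 187. Of 10 smooth muscle genes 0 had both females higher, against the same 22.3%. Their mean log2 levels were 7.55, 8.20, 7.44 and 7.63, highest in the null female. Comparing null with control, 9 of the 10 were higher and 1 lower in the null animals, with a median of 0.25 and 0 past the threshold. Split by sex, the median null minus control difference was -0.23 for males and 0.68 for females. Both null arrays lay above both controls for 3 of the 10 and below both for 0. Acta2, Myl9 and Mylk, which encode parts of the contractile apparatus, differed by 0.07, 0.47 and -0.04 between null and control. Of 13 genes of epithelial identity 2 had both females higher, again against 22.3%, and the epithelial means were 10.91, 10.77, 11.03 and 10.88. In the null animals 4 of the 13 were higher and 9 lower, with a median of -0.12 and 0 past the threshold. Both null arrays lay below both controls for 6 of the 13, against 16.3% of all probe sets tested. They lay above both controls for 1, against 13.5%. The keratin Krt8 read 3861, 3300, 4388 and 3684, and Krt19 read 3131, 2745, 3850.1 and 3401, so the lowest array of both was the null female. Ezr, Cldn7 and Tspan8 of the same list, chosen after their values were seen, were lowest in the control male, at 1234, 1821 and 1147. The gap was small for Ezr, at 1242 in the null female, and for Cldn7, at 1837 in the null male. Vil1, Krt18, Epcam and Krt20 were lowest in the null female, and Krt20 was highest in the control male, at 2463. Cdh1 and Cdh17 were lowest in the null male, and Cldn3 in the control female. Lgals4 was lowest in the null female by deposited intensity, at 5302, but in the null male after normalization. The part of these cell types in the members' values was not tested.

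Patterns over the 4 arrays were also compared by the root mean square difference of values centred on each gene's own mean, with the brightest probe set standing for a gene. Among the 8 members, Hnf4a and Cdx2 were closest, at 0.093 on the log2 scale, followed by Gata5 with Gata6 and Hnf4g with Gata5, both at 0.121. Cdx1 and Nr5a2 were farthest apart, at 0.464. Over all 9546 genes tested, those nearest to Hnf4a were Icmt (0.024), a methyltransferase of prenylated proteins, and Trp53rka (0.025). Nearest to Hnf4g were Gpbp1l1 (0.011) and Nsf (0.013), to Cdx1 Fblim1 (0.011) and Cox6a2 (0.014), and to Cdx2 Mc1r (0.027) and Lsp1 (0.028). Nearest to Gata4 were Spink1 (0.016) and Trim8 (0.018), to Gata5 Plcl2 (0.015) and Rap1gds1 (0.015), to Gata6 Letm1 (0.0099) and Cwc27 (0.015), and to Nr5a2 Sema4d (0.023) and Ly86 (0.054). With 4 arrays, close patterns are common among this many genes.

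None of the other genes of the network passed the test either. Of 18 further epithelial transcription factors tested, 12 were higher and 6 lower in the null animals, with a median of 0.08 against 0.00 over all genes tested, and 0 passed in either direction. Creb3l3, which activates apolipoprotein genes, read 1334 and 1007 in the null animals and 968 and 1239 in the control female and male, a difference of 0.10 (SE 0.19). Klf5, a factor of crypt proliferation, differed by -0.05 (SE 0.14), and Smad4, the shared mediator of TGF-beta signals, by 0.08 (SE 0.20). Of 13 cofactors tested, 4 were higher and 9 lower, with a median of -0.10 and 0 past the threshold. The deacetylase Hdac1 differed by 0.14, the corepressor Tle4 by 0.20 and the nuclear receptor corepressor Nrip1 by -0.12. Nr0b2, or SHP, which represses Nr5a2 and HNF4 proteins, read between 21.4 and 28.7 and was too dim to test.

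None of the genes known as targets of these factors passed the test between null and control. Of 18 HNF4 targets tested, 10 were higher and 8 lower, with a median of 0.04 and 0 past the threshold. The brightest were Apoa1, the main protein of HDL, at -0.03 (SE 0.06), and the fatty acid binding proteins Fabp2 at -0.14 (SE 0.08) and Fabp1 at -0.21 (SE 0.08). Fabp1 read 5851 in the null male, 5753 in the null female, 6650.3 in the control female and 6805 in the control male, so its groups did not overlap. Of 15 CDX targets, 3 were higher and 12 lower, with a median of -0.11 and 0 past the threshold. The CDX list holds the member Cdx1 and shares Lgals4, Krt20 and Cdh17 with the epithelial identity list. It shares Cldn2 with the HNF4 targets, Lct with the GATA targets and Gcg with the distal list. The HNF4 list shares Vil1 and Epcam with the epithelial identity list and Creb3l3 with the further transcription factors. It also shares Fabp1 and Apob with the GATA targets, and Abcg5 and Abcg8 with the Nr5a2 targets. The lectin Lgals4 stood at -0.11 (SE 0.09), and the peptide genes Guca2b (uroguanylin) and Guca2a (guanylin) at -0.05 (SE 0.09) and 0.15 (SE 0.10).

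Of 9 proximal targets of GATA factors tested, 2 were higher and 7 lower, with a median of -0.12 and 0 past the threshold. Fabp1, Lct, Gip, Cck and Sct of this list are also in the list of proximal genes above. Beside Fabp1, the glucose transporter Slc5a1 differed by -0.17 (SE 0.12) and the retinol carrier Rbp2 by -0.05 (SE 0.14). Of 5 tested genes that Gata4 is known to hold low in jejunum, 0 were higher and 5 lower, with a median of -0.27. Slc51a, Cubn and Fabp6 of this list are also in the list of distal genes above, so these lists are not independent. Enpep differed by -0.27 (SE 0.14), Mep1b by -0.08 (SE 0.12) and Slc51a by -0.34 (SE 0.27). None of the 5 passed the threshold. Cubn, the receptor for intrinsic factor, had the largest difference of the 5, at -1.35 (SE 0.24, adjusted p = 1 in limma), and read 200 and 210 in the null male and female, 464 in the control female and 682 in the control male. With sex as a block, a fit with 1 residual degree of freedom under which 0.183% of all probe sets passed, Cubn was called (adjusted p = 0.0216 in limma) and the other 4 were not. The ileal bile acid transporter Slc10a2 and the hormone gene Fgf15 were too dim to test. Of 7 Nr5a2 targets tested, 5 were higher and 2 lower, with a median of 0.09 and 0 past the threshold. The sterol transporters Abcg5 and Abcg8 stood at 0.19 (SE 0.15) and 0.21 (SE 0.21), and cyclin D1, Ccnd1, at -0.32 (SE 0.33).

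**Figure D4:**
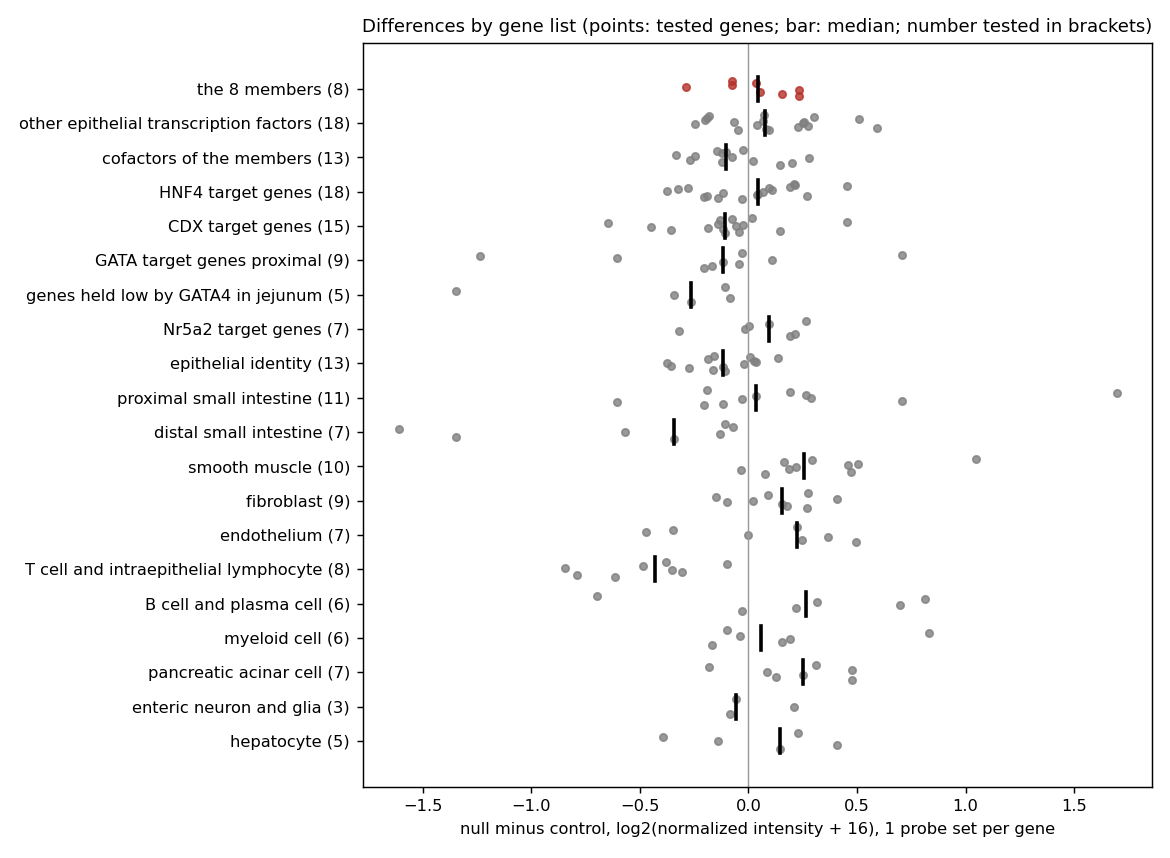
Null minus control difference in log2(normalized intensity + 16) for each tested gene of the 20 lists, 1 probe set per gene, with the median of each list as a bar and the number of genes tested in brackets. The 8 members lie between -0.29 and 0.23, and none of the genes shown passed the threshold over all probe sets.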

How the data were processed

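Per the labels, RNA was extracted with a Qiagen kit, labelled with biotin and hybridised to Affymetrix arrays. The authors deposited 1 linear intensity per probe set and array. How probes were summarised, background-corrected and scaled is not given in the sources used here. The table has no detection calls, so whether a dim value lies above background is unknown. The number of arrays limits the precision.

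Names came from the platform annotation. Of 22690 probe sets, 64 controls were left out; of the others 20380 had 1 gene, 691 several and 1555 none. Array medians differed by 0.227 in log2(intensity + 16), and intensities were quantile normalized, with values below 0 set to 0, and 16 was added before taking log2. The dimmest 30% by mean were left out. Null and control were compared with lmFit and eBayes of limma 3.58.1 (R 4.3.3), using a trend of the prior with intensity. The test was two-sided, Benjamini-Hochberg adjustment ran over 15838 probe sets, and calls needed an adjusted p under 0.05. Residual degrees of freedom were 2 and those of the prior 4.65. It was checked on simulated data. A gene was represented by its brightest probe set where 1 value is given.

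The members, gene lists and tests were chosen with earlier results of these data known. The text names every member probe set, and the 3 brightest tested genes of each list described by its genes, and the nearest patterns; lists of endothelium, myeloid cells, neurons and hepatocytes are given as counts or in the plot of gene lists, and other genes, among them Cd22, Elf3 and the genes without overlap, were chosen after their values were seen. Alternatives were median scaling, no normalization, pseudocounts of 1 and 64, no filter, no trend, sex as a block, the mean over a gene's probe sets and leaving out each animal. Promoter windows came from RefSeq, and none was matched for Hnf4g, Cdx1, Gata4 and Gata6; the HNF1 motif was shortened to its half-site after matches of a longer form were seen.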

Additional observations from a re-analysis of the deposited data

Results flagged for a closer look

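The null minus control difference had opposite signs in the male and the female pair for 4 of the 8 genes on their brightest probe set. Hnf4a stood at 0.62 in males and at -0.16 in females. Cdx2 differed by 0.41 in the males and by -0.30 in the females. Gata4 went the other way, at -0.17 in the males and 0.25 in the females. Cdx1 differed by 0.0496 in the males and by -0.20 in the females. With 1 animal per sex and group, the difference between the sexes was not tested, and 51.8% of all probe sets tested had opposite signs in the pairs.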

How the results depend on the processing

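No member probe set passed the threshold in limma under any alternative run, with or without sex as a block. The lowest adjusted p among 206 alternative values was 0.184, and 180 of them kept the direction. The 26 that did not came mostly from leaving out an animal, 10 of them from the control male, 6 from the null female, 4 from the control female and 3 from the null male. Leaving out each animal in turn, the difference ranged from -0.0839 to 0.55 for Hnf4a, -0.0144 to 0.32 for Hnf4g, -0.31 to 0.16 for Cdx1, -0.23 to 0.34 for Cdx2, -0.11 to 0.18 for Gata4, -0.28 to 0.13 for Gata5 and -0.14 to 0.61 for Nr5a2. On the dimmer probe sets it ranged from -0.24 to 0.51 (1421983_s_at) and -0.0106 to 0.18 (1450447_at) for Hnf4a, -0.11 to 0.34 for Hnf4g, -0.44 to 0.22 for Cdx2, -0.26 to 0.19 for Gata4, and -0.29 to 0.38 (1420410_at) and -0.35 to 0.25 (1449706_s_at) for Nr5a2. With no normalization Gata4 was -0.0106 and Nr5a2 1420410_at -0.0077, and as a mean over its probe sets Cdx2 was -0.0284. The count over all probe sets was 2, against 1 without the trend and 29 with sex as a block, and from 0 to 29 on leaving out an animal with normalization and filter kept from all 4 arrays. The count was 0 without the control female and without the control male, where 220 and 199 had an unadjusted p under 0.05 in limma. The cause was not tested. The lone animal left in a group is assumed there to vary like the other group. The animals can be paired only by sex, since the groups share no replicate number, and the fit with sex as a block is that paired analysis, with 1 residual degree of freedom.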

Other observations

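Among the further epithelial transcription factors, 5 of 18 had groups that did not overlap, 3 with both null animals higher and 2 with both lower, where 13.5% and 16.3% of all probe sets did so. Elf3, an ETS factor of epithelial differentiation, read 481 and 725 in the null male and female against 414 and 384 in the control female and male, a difference of 0.59 (SE 0.22). Atoh1, which directs secretory cell fate, read 174 and 227 against 178 and 157, and after normalization both null animals lay above both controls, at a difference of 0.28 (SE 0.20). Grhl2, an epithelial grainyhead factor, read 95.2 and 82.4 against 77.8 and 69.95, at 0.26 (SE 0.24). Hes1, the Notch target that opposes Atoh1, read 75.9 and 110.5 against 121 and 111, at -0.24 (SE 0.22), and Klf5 read 884 and 924 against 949.9 and 951. Each had an adjusted p of 1 in limma.

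Of 8 genes of T cells and intraepithelial lymphocytes tested, 0 were higher and 8 lower in the null animals, with a median of -0.43 and 0 past the threshold. Gzma, a granzyme, read 596 and 354 against 768 and 677, and the chemokine Ccl5 read 141 and 90.7 against 161 and 282. Gzmb, another granzyme, read 98.6 and 74.2 against 102 and 124, with overlap. Of 7 pancreatic acinar genes, 6 were higher in the null animals, and 0 passed. Cpa1 read 566 in the null male against 307, 323 and 274 in the null female, the control female and the control male. The proteases Prss2 and Cela2a differed by 0.13 (SE 0.27) and 0.25 (SE 0.23).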
